A study of Mus musculus with 16 samples.

Results

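The regions described here are the stretches of open chromatin between genes that lie within reach of a promoter, in mouse embryonic stem (ES) cells. A region was taken from the deposited list of ATAC-seq regions if it lay on an autosome, if its centre was outside every GENCODE M21 gene and every promoter, and if that centre was at most 50 kb from the closest start of a transcript. A promoter ran from 1000 bp before to 100 bp after a transcription start site (TSS), on the strand of the gene. The rule selected 23133 of the 81132 regions in the list, or 29.2% of the 79278 autosomal regions (95% Wilson interval 28.9 to 29.5%). In the text these are called the gene-proximal intergenic regions.

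ATAC-seq, in which the Tn5 transposase inserts adapters into accessible DNA, was performed on 12 libraries of SBROS cells, with 3 replicates for each of 4 sorted populations. SBROS is a knock-in line of the CGR8 background with a SNAP-tag on SOX2, from both alleles, and a HALO-tag on OCT4, from a single allele of its gene Pou5f1. It was made from SBR, a line that reports SOX1 and Brachyury expression. Cells in G1 phase were sorted as SHOH (SOX2 high, OCT4 high), SHOL (SOX2 high, OCT4 low), SLOH (SOX2 low, OCT4 high) and SLOL (SOX2 low, OCT4 low). All populations grew in serum with LIF, the GSK3 inhibitor CHIR99021 and the MEK inhibitor PD184352, so they share the tags and the medium. All come from a single engineered line, and the HALO signal reads only the tagged allele of OCT4. The list pools the regions of all 12 libraries and holds positions alone, without saying which library a region came from. It therefore gives no sequencing depth and no replicate error, and no difference between the 4 populations could be computed.

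Open chromatin away from promoters marks enhancers, insulators and other regulatory elements, where transcription factors bind the DNA in place of a nucleosome. In ES cells SOX2 and OCT4 bind side by side on a composite motif made of a SOX and a POU site, and can do so on DNA that is partly wrapped in nucleosomes. Other factors of the pluripotency network, such as KLF4, ESRRB and TFCP2L1, bind many of the same enhancers, while CTCF marks insulators and the ends of chromatin loops, and REST represses neuronal genes.

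Examples of the sequence at these regions are given on GRCm38 (mm10), each 120 bases long and read on the strand that spells the motif as searched. The capitals mark the motif match, or in the CpG-rich example the CG dinucleotides. Each was taken by distance. The regions with the composite, octamer and TFCP2L1 motifs are among the closest to a TSS of those at listed pluripotency or lineage genes, and the CTCF, REST and CpG-rich ones are among the closest to any protein-coding TSS. For the octamer the choice was small, as only Dppa3 and Sox4 among these listed genes had a region with it. All lie between genes. The SOX-OCT composite at Pou5f1 is on the minus strand at chr17:35503996-35504115, in a region of 540 bp centred 1921 bp upstream of the TSS, and differs from the searched pattern at 2 positions. The octamer lies at chr13:28980824-28980943 (plus strand), 27154 bp upstream of Sox4, which encodes a relative of SOX2. The TFCP2L1 site lies at chr1:89942100-89942219 (plus strand), 10960 bp upstream of Gbx2, a homeobox gene of naive pluripotency. The CTCF site lies at chr3:108563476-108563595 (minus strand), 1073 bp upstream of Tmem167b. The REST site, with 3 mismatches, lies at chr2:157913462-157913581 (minus strand), 1216 bp upstream of Vstm2l. The CpG-rich stretch is the centre of a region at chr11:69802809-69802928 (plus strand), 1012 bp upstream of Fgf11.
SOX-OCT composite, Pou5f1: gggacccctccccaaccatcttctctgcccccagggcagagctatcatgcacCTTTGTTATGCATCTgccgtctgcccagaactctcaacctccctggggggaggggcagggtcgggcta
OCT octamer, Sox4: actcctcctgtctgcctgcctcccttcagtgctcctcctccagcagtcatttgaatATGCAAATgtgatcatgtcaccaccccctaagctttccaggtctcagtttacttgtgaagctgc
TFCP2L1, Gbx2: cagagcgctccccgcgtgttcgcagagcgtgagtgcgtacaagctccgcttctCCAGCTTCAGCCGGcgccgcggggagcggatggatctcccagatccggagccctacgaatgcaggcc
CTCF, Tmem167b: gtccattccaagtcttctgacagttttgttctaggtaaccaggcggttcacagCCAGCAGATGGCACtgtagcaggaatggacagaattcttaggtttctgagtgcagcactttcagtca
REST, Vstm2l: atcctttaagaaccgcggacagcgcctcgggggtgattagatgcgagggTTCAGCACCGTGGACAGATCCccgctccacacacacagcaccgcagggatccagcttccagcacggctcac
CpG-rich, Fgf11: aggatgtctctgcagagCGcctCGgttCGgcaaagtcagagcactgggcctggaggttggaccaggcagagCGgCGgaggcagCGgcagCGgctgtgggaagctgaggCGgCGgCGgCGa

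Gene-proximal intergenic sequence was about as densely occupied by open regions as introns, and more densely than intergenic sequence farther away. The rule leaves 834 Mb of autosomal sequence without gaps in which a region could qualify, called eligible sequence. It held 27.7 regions per Mb. Introns, as the 27968 regions centred in introns and outside exons and promoters, had 28.0 regions per Mb over 999 Mb. The 4691 intergenic regions over 50 kb from any TSS had 12.6 regions per Mb over 371 Mb. The density was thus 0.991 times that of introns and 2.19 times that of the distant intergenic sequence. The regions covered 1.03% of the eligible sequence, as in introns (1.03%), and 0.487% was covered beyond 50 kb. With protein-coding genes alone as the annotation, which turns non-coding genes into intergenic sequence, the ratio to introns was 1.33.

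Beyond 20 kb from the TSS the regions thinned out. Up to 20 kb there was no steady fall, with 33.4 regions per Mb between 1 and 2 kb, 30.5 between 2 and 5 kb, 33.3 between 5 and 10 kb and 30.0 between 10 and 20 kb. Between 20 and 30 kb there were 24.4, and between 40 and 50 kb 18.2. The distance had a median of 11842 bp, a lower quartile of 5771 bp and an upper quartile of 22335 bp. Within 10 kb lay 10066 regions (43.5%). The limit of 50 kb fell on a gradual decline. The 1341 regions just inside it, at 40 to 50 kb, had a density of 18.2 per Mb and a median width of 327 bp, and the 931 just outside, at 50 to 60 kb, had 16.0 per Mb and 332 bp. Beyond 100 kb the density was 10.1 regions per Mb.

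**Figure D1:**
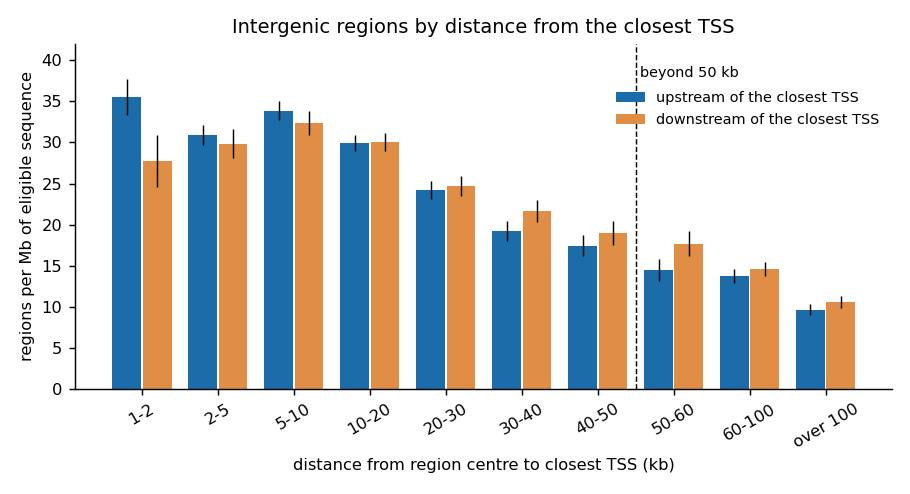
Intergenic regions per Mb of eligible sequence (vertical axis) by distance from the closest TSS in kb (horizontal axis), upstream in blue and downstream in orange, with 95% counting intervals as error bars. Upstream the density is 35.5 regions per Mb at 1 to 2 kb and 17.4 at 40 to 50 kb, and it is lower still past the dashed line at 50 kb.

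Of the regions, 13523 lay upstream of their closest TSS and 9610 downstream, beyond the end of the gene. The upstream share of 58.5% (95% Wilson interval 57.8 to 59.1%) stood beside 57.6% of the eligible sequence that was upstream. Per Mb there were 28.1 regions upstream and 27.2 downstream. The sides differed most next to the promoter, with 35.5 regions per Mb upstream and 27.8 downstream at 1 to 2 kb. From 20 kb on the order was the other way, as at 30 to 40 kb with 19.2 upstream and 21.6 downstream. The orientation of the flanking genes made little difference to the density. There were 28.5 regions per Mb between genes that point away from each other, 28.8 between genes that point toward each other and 26.9 between genes on the same strand.

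The closest TSS belonged to a protein-coding gene for 9485 regions (41.0%), to a pseudogene for 5829 (25.2%) and to a long intergenic non-coding RNA for 3836 (16.6%). The remainder belonged to small RNAs and other types. Measured to protein-coding TSSs alone, the median distance was 26590 bp, and 7350 regions (31.8%) were over 50 kb away. Eligible sequence whose closest TSS was that of a protein-coding gene had 37.2 regions per Mb, and sequence closest to other gene types had 23.6.

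Across the 19 autosomes, chromosome 6 stood apart. It held 2284 of the regions, or 42.9 per Mb, while the other 18 autosomes had from 21.8 per Mb on chromosome 14 to 34.0 on chromosome 11, with a median of 26.5. Introns and distant intergenic sequence shared this excess, as the density ratios hardly changed without chromosome 6. The density was then 0.980 times that of introns and 2.21 times that of distant sequence, against 0.991 and 2.19 with it. The share of regions narrower than 200 bp on chromosome 6 was 23.2%, within the range of 19.3 to 24.8% on the other autosomes.

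The gene-proximal intergenic regions were small. Their widths had a median of 319 bp and quartiles of 209 and 476 bp, against 308 bp in introns, 329 bp beyond 50 kb and 600 bp for the 16519 regions at promoters. Of the regions, 22.4% were narrower than 200 bp, compared with 23.9% in introns (difference -1.57 percentage points, two-sided Fisher's exact test, adjusted p = 4.5e-05, 16 of 19 autosomes in the same direction). Regions wider than 1000 bp made up 1.49%, against 1.96% in introns (adjusted p = 6.1e-05, Fisher's exact test, 16 of 19 autosomes). Against the distant intergenic regions, neither share passed the threshold (narrow, 23.0%, adjusted p = 0.378; wide, 1.88%, adjusted p = 0.0595, Fisher's exact test). The wide share did pass without chromosome 6 (difference -0.458 points, adjusted p = 0.0362), with protein-coding genes alone (adjusted p = 0.0457) and among regions of at least 200 bp (adjusted p = 0.0437, Fisher's exact test). The adjustment, by Benjamini-Hochberg, covered 8 comparisons, and neighbouring regions are not independent samples, so the p-values describe counts in this list.

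The GC content lay between that of introns and distant sequence, with a median of 49.7%, against 50.1% in introns, 47.5% beyond 50 kb and 60.7% at promoters. The median ratio of observed to expected CG dinucleotides was 0.236, against 0.232 in introns and 0.203 beyond 50 kb. A region was called CpG-rich if it had at least 200 bp, at least 50% GC and a ratio of observed to expected CG dinucleotides of at least 0.6. This held for 856 gene-proximal intergenic regions (3.70%), fewer than in introns (5.28%, adjusted p = 2.2e-17, Fisher's exact test, 18 of 19 autosomes) and more than beyond 50 kb (2.49%, adjusted p = 4.5e-05, 14 of 19 autosomes). With protein-coding genes alone as the annotation, the difference from introns was -0.652 points, against -1.58, and that from the distant regions 1.97 points, against 1.21. Their share was 4.85% among the 165 regions within 1 kb of a TSS, 7.62% at 1 to 2 kb and 2.54% at 40 to 50 kb.

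Repeats separated the classes most. The reference genome writes repeats and low-complexity sequence in lower case (soft-masked), and 4764 of the gene-proximal intergenic regions (20.6%) were soft-masked over more than 50% of their length. This was 6.74 percentage points above introns (13.9%, adjusted p = 1.3e-89, Fisher's exact test, 19 of 19 autosomes) and 10.8 points below the 31.4% of distant regions (adjusted p = 5.5e-55, 17 of 19 autosomes). With protein-coding genes alone the difference from introns was 3.97 points. Within the limit the share grew with distance, from 17.2% at 1 to 2 kb to 24.4% at 40 to 50 kb. It was 27.6% where the closest gene was a pseudogene, 18.7% at protein-coding genes and 14.8% at long intergenic non-coding RNAs. The authors kept uniquely mapped reads, so repeats present in many identical copies could not be seen in full. They also left out regions that overlapped peaks of a ChIP-seq input, and what this did to the shares was not tested.

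Motifs of 16 factors or factor families were searched on both strands in the central 200 bp of each region, a window that reaches past the ends of the 22.4% of regions narrower than this. At least 1 of them was present in 7604 gene-proximal intergenic regions (32.9%), and at least 2 kinds in 1037 (4.48%). The same search in windows of 200 bp placed 5 kb away, free of regions and gaps, found at least 1 kind in 16.1% of 23088 flanks. Of the 16 motifs, 15 were more frequent in the regions than in their flanks (two-sided exact McNemar test, Benjamini-Hochberg over 16 motifs). The exception was the octamer.

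CTCF had the strongest contrast in points and, among motifs found in at least 1 flank, in ratio. Its motif was in 1025 regions with a flank (4.44%) and in 11 flanks (0.0476%), a ratio of 93.2 (adjusted p = 1.5e-285, exact McNemar test, 19 of 19 autosomes). The ratio rests on few flanks, and was 64.2 with flanks 2 kb away (16 flanks with the motif) and 512 with flanks 10 kb away (2 flanks). REST sites were in 47 regions and in 0 of 23088 flanks, which allows a flank share of up to 0.0130% (adjusted p = 2.3e-14, exact McNemar test). TFCP2L1 (0.338% against 0.0433%) and KLF, searched as GGGTGTGGC or GGGCGTGGC (3.44% against 0.455%), had ratios of 7.80 and 7.57. With flanks 10 kb away the TFCP2L1 ratio was 4.05. The ZIC motif (CCTGCTGTG or CCTGCTGGG) was at 2.86% and 0.710%, and the ESRRB motif TCAAGGTCA at 1.61% and 0.520%. All of these passed the test, KLF with an adjusted p of 1.0e-133 and TFCP2L1 with 4.8e-14 (exact McNemar test). Smaller ratios were seen for STAT (TTCCNGGAA, 1.89), TEAD (ACATTCCA, 1.70) and AP-1 (TGACTCA, 1.49).

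For the motifs of SOX2 and OCT4 the contrast with flanks was weaker than for CTCF. The SOX motif, CCATTGT or CCTTTGT, was the most frequent of all, at 10.7% in the regions and 7.83% in their flanks (ratio 1.37, adjusted p = 9.6e-27, exact McNemar test, 19 of 19 autosomes). The SOX-OCT composite, allowing 2 mismatches in 15 positions, was in 183 regions (0.793%) and 55 flanks (0.238%), a ratio of 3.33 (adjusted p = 3.7e-17, exact McNemar test, 18 of 19 autosomes). No region held the composite without a mismatch. The octamer ATGCAAAT alone was in 1.77% of regions and 1.89% of flanks (adjusted p = 0.349, exact McNemar test). This result depended on which flanks were used. With flanks 2 kb away the octamer was more frequent in the regions by 0.420 points, with flanks 10 kb away by 0.321 points, and among the 8693 pairs whose GC content differed by at most 5 points by 1.24 points (2.27% against 1.02%, adjusted p = 2.2e-10, exact McNemar test). Of the flanks with an octamer 57.6% were mostly soft-masked, against 30.1% of all flanks. Of the central 200 bp windows with an octamer 21.3% were, close to the 21.8% of all central windows. Among the 13106 pairs with neither side mostly soft-masked, an alternative chosen after seeing the data, the octamer was in 1.82% of regions and 1.06% of flanks (adjusted p = 5.3e-07, exact McNemar test). The GC content of the regions' centres was higher than that of flanks, with medians of 50.0% and 44.0%, and its part in the other ratios was tested only by these GC-matched pairs, where 15 motifs, now with the octamer, passed the threshold and NRF1 (GCGCATGCG) did not (0.0575 points, adjusted p = 0.383, exact McNemar test). In these pairs the ratio was lower for YY1 (3.00, against 12.1 in all pairs), KLF (5.30 against 7.57), ZIC (2.55 against 4.02), the GC box (1.93 against 3.50) and NRF1 (1.62 against 4.89). It was slightly lower for STAT and ETS and higher for the other motifs found in flanks, as for the composite (6.62 against 3.33). Among pairs with neither side mostly soft-masked, which were not matched for GC, the YY1 ratio was 2.93.

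**Figure D2:**
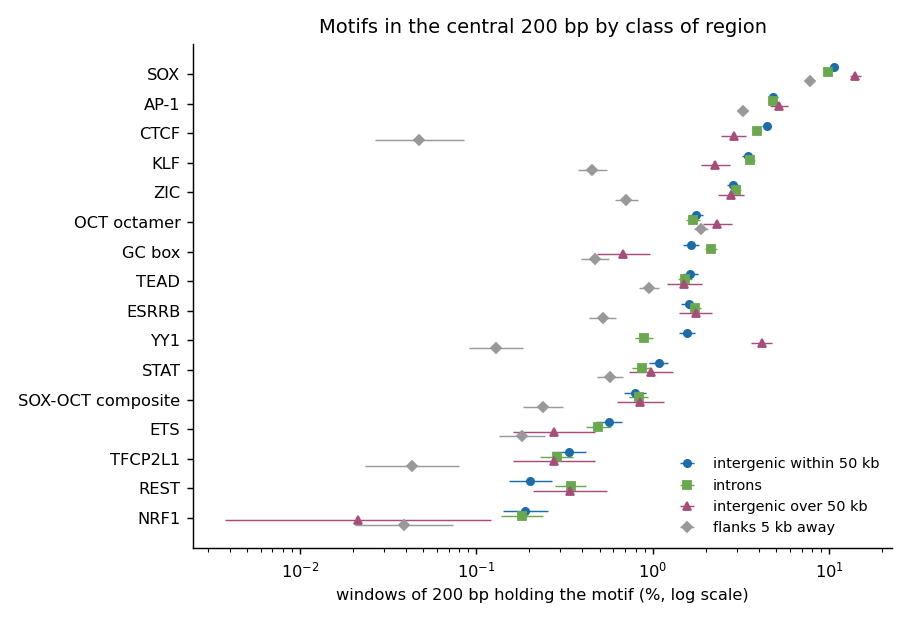
Percentage of 200 bp windows that hold each motif (horizontal axis, log scale), for gene-proximal intergenic regions (blue circles), introns (green squares), intergenic regions over 50 kb from a TSS (purple triangles) and flanks 5 kb from the gene-proximal regions (grey diamonds), with 95% Wilson intervals. Among motifs with a flank point, CTCF separates regions from flanks most, at 4.44% and 0.0476%. YY1 has its highest share beyond 50 kb, at 4.14%. REST has no flank point because no flank held it.

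In points, each motif differed less from introns than from flanks 5 kb away. The distant regions were not closer in every case. SOX differed more from them (-3.39 points, against 2.91 from flanks), as did YY1 (-2.57 against 1.44). The same was seen for the octamer (-0.560 against -0.121) and NRF1 (0.169 against 0.152). Of the 16 motifs, 6 differed between gene-proximal intergenic regions and introns and 8 between them and the distant regions (two-sided Fisher's exact test, Benjamini-Hochberg over 32 comparisons). Those from introns were SOX, STAT, CTCF, REST, YY1 and the GC box, and those from the distant regions were the octamer, SOX, KLF, CTCF, ETS (CCGGAAGT), NRF1, YY1 and the GC box. The ETS call was lost among regions of at least 200 bp (0.269 points, against 0.289 in all regions; adjusted p = 0.0994, Fisher's exact test) and among those at most 50% soft-masked, an alternative chosen after seeing the data (0.233 points, adjusted p = 0.258). The STAT call was lost among regions of at least 200 bp (0.235 points, against 0.215 in all regions; adjusted p = 0.0559, Fisher's exact test) and over whole regions (0.221 points, adjusted p = 0.137). CTCF was more frequent than in either, at 4.44% against 3.89% in introns (adjusted p = 0.00737, Fisher's exact test, 14 of 19 autosomes) and 2.88% beyond 50 kb (adjusted p = 2.7e-06, 14 of 19 autosomes). Among regions of at least 200 bp the difference from introns did not pass (0.430 points, adjusted p = 0.0942, Fisher's exact test). KLF was as frequent as in introns (3.45% and 3.56%, adjusted p = 0.708) and more frequent than beyond 50 kb (2.26%, adjusted p = 7.5e-05, Fisher's exact test, 18 of 19 autosomes). The SOX motif was in 10.7% of the regions, against 9.83% in introns and 14.1% beyond 50 kb (adjusted p = 0.00368 and 8.0e-10, Fisher's exact test). Among regions at most 50% soft-masked the difference from introns did not pass (0.407 points, adjusted p = 0.293, Fisher's exact test). The octamer was also rarer than beyond 50 kb, at 1.76% against 2.32% (-0.560 points, adjusted p = 0.0310, Fisher's exact test). Among regions of at least 200 bp the difference was -0.620 points and did not pass (adjusted p = 0.0504, Fisher's exact test). The composite did not differ detectably between the classes, at 0.791%, 0.833% in introns and 0.853% beyond 50 kb (adjusted p = 0.710 and 0.721, Fisher's exact test). With protein-coding genes alone its difference from the distant regions passed (-0.258 points, adjusted p = 0.0231, Fisher's exact test). ESRRB and TFCP2L1 did not pass in either comparison, although ESRRB was below the distant regions among those at most 50% soft-masked (-0.562 points, adjusted p = 0.0490, Fisher's exact test). REST was also below the distant regions in that alternative (-0.252 points, adjusted p = 0.0490, Fisher's exact test), and TEAD was above introns over whole regions (0.363 points, adjusted p = 0.0246). The GC box GGGGCGGGG was in 1.65% of the regions, below introns (2.13%, adjusted p = 0.000343) and above the distant regions (0.682%, adjusted p = 5.3e-07, Fisher's exact test). REST was rarer than in introns, at 0.203% against 0.343% (adjusted p = 0.00996, Fisher's exact test). With protein-coding genes alone as the annotation, SOX, STAT, YY1 and the GC box no longer differed from introns and ETS did, so that 3 motifs passed. In all 79278 autosomal regions, as the background of the same window, CTCF was in 3.28%, KLF in 3.50%, SOX in 8.95%, the octamer in 1.53%, the composite in 0.637%, ESRRB in 1.34%, TFCP2L1 in 0.318% and REST in 0.267%.

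YY1 sites lay mostly in repeats. Its motif AAGATGGCG was in 1.56% of the gene-proximal intergenic regions, above introns (0.894%, adjusted p = 8.0e-11, Fisher's exact test) and below the distant regions (4.14%, adjusted p = 8.1e-24, Fisher's exact test). Its share was 2.42% among the 165 regions within 1 kb of a TSS, 1.29% at 1 to 2 kb, 0.870% at 2 to 5 kb, 1.65% at 5 to 10 kb, 1.23% at 10 to 20 kb and 2.98% at 40 to 50 kb. Of the 362 regions with it, 291 (80.4%) were mostly soft-masked, and 311 of its 363 sites lay in soft-masked bases. Among regions at most 50% soft-masked the difference to introns did not pass the threshold (0.387% and 0.278%, adjusted p = 0.133, Fisher's exact test). The difference to the distant regions was then -0.391 points, against -2.57 in all regions, and passed (0.777% beyond 50 kb, adjusted p = 0.0153, Fisher's exact test). ESRRB sites lay in soft-masked bases in 49.7% of cases and KLF sites in 40.0%, compared with 7.93% of CTCF, 7.61% of composite and 2.13% of REST sites. The mean soft-masked share of the central windows was 26.3%.

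The position of the sites around the region centres gave a measure that does not use the flanks 5 kb away. Its reference, at 900 to 1000 bp from the centre, lies outside most regions, whose upper quartile of width is 476 bp. Of all CTCF sites within 1000 bp of a centre, 42.8% lay within 50 bp of it, and the density there was 51.7 times that at 900 to 1000 bp. For REST this share was 34.9%, and for KLF 19.3% with a ratio of 8.40. The composite had a ratio of 3.05 and ESRRB 2.83. SOX (1.69) and the octamer (1.60) had the weakest peaks among the pluripotency motifs, on a background that was already high. The octamer thus had a central peak although its share did not exceed that of flanks 5 kb away. YY1 had 9.14% of its sites within 50 bp of the centre and a ratio of 5.39, but no peak at the centre itself. Within 50 bp it had 0.0778 and 0.0761 sites per kb before and after the centre. At 100 to 150 bp it had 0.0942 and 0.0968.

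**Figure D3:**
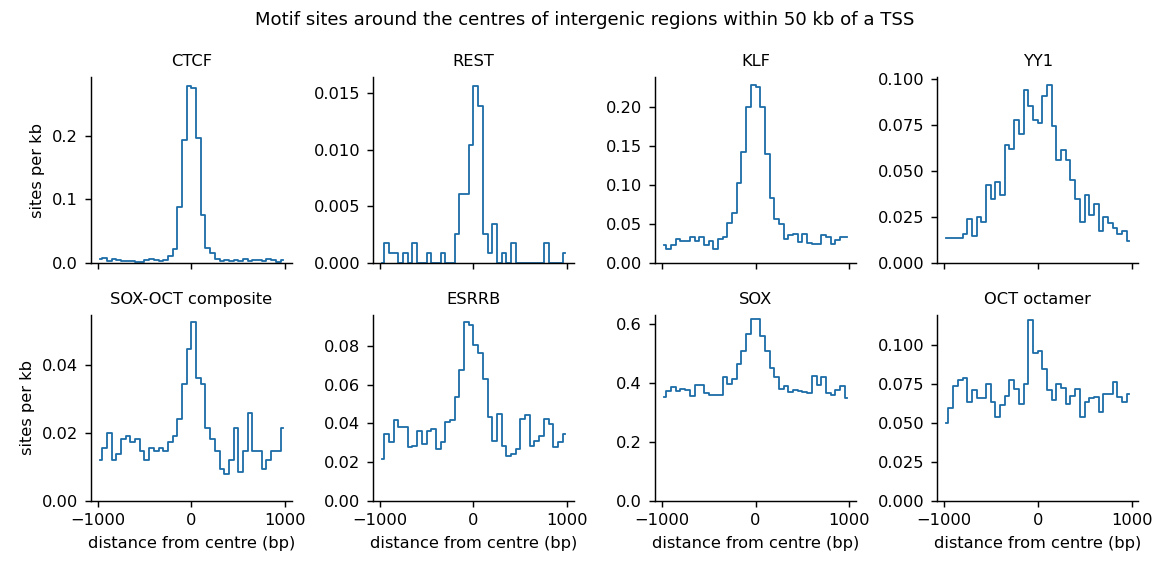
Sites per kb (vertical axes, each with its own scale from 0) in bins of 50 bp by distance from the centre of the gene-proximal intergenic regions in bp (horizontal axes), for 8 motifs. CTCF and KLF rise to 51.7 and 8.40 times their level at 900 to 1000 bp, SOX and the octamer rise to 1.69 and 1.60 times.

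The spacing between SOX and OCT sites was examined around a relaxed octamer (ATGCNNAT), with a SOX core (CNTTGT) within 30 bp. On the same strand, the core began 7 bp before the octamer, the arrangement of the composite, in 10 regions and in 0 flanks. It began 12 bp before it in 12 regions and 2 flanks. An offset of 5 bp after the octamer start, at which the motifs overlap, was in 10 regions and 13 flanks. The median over the 59 offsets on that strand other than 7 and 12 bp before was 2 in regions and 2 in flanks. These include overlapping offsets at which the patterns cannot both match, so that the count is 0 by construction. The medians are therefore no baseline for the offsets that can occur. On the opposite strand, a core that began 3 bp before the octamer and overlapped it was the most frequent arrangement in regions, with 23, and was in 42 flanks. In flanks the most frequent arrangement was 24 bp after the octamer on the same strand, in 73 flanks and 7 regions, and 97.3% of these flanks were mostly soft-masked. Offsets with few pairs are listed for description, and those named were chosen after their counts were seen, other than the composite's.

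**Figure D4:**
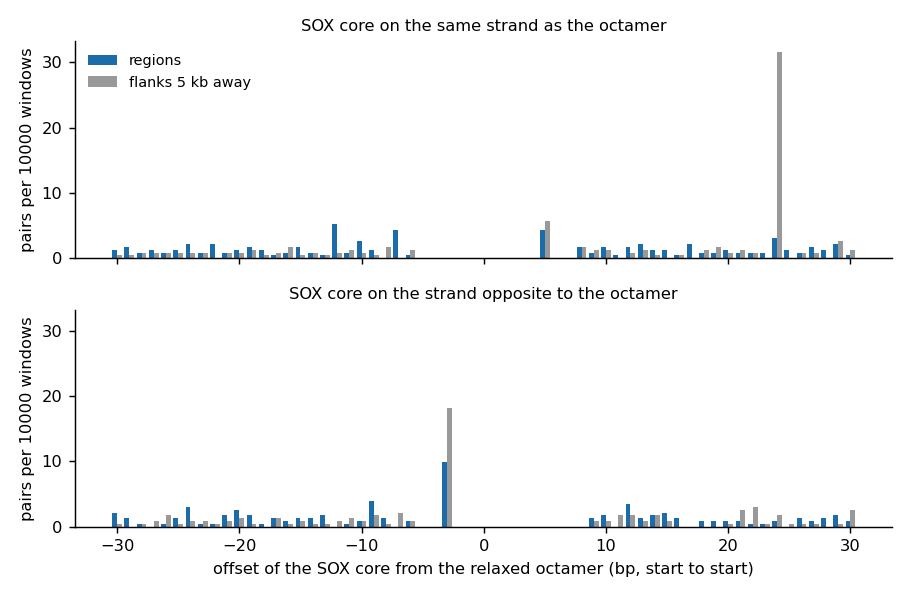
Pairs of a SOX core and a relaxed octamer per 10000 windows (vertical axes) by the offset between their starts in bp (horizontal axis), in the central 200 bp of gene-proximal intergenic regions (blue) and in flanks 5 kb away (grey), for cores on the same strand as the octamer (upper) and on the other strand (lower). Offsets of -12 and -7 reach 5.19 and 4.32 in regions, against 0.866 and 0 in flanks, and flanks have their peak at an offset of 24.

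Genes with an accessible promoter had more of these regions. Of 20807 protein-coding autosomal genes, 5362 (25.8%) had at least 1 region to which they were closest, and 229 had 5 or more. A region was centred in the promoter of 12254 genes. Of these, 27.7% also had a gene-proximal intergenic region (95% Wilson interval 26.9 to 28.5%), against 23.0% (22.1 to 23.9%) of the 8553 other genes (difference 4.75 points, two-sided Fisher's exact test, p = 1.2e-14, 18 of 19 autosomes). Per Mb of eligible sequence closest to them the genes had 45.7 and 27.3 regions.

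Non-coding genes and pseudogenes made up most of those with the highest counts. They were also the majority in general, as 5362 of the 12572 genes with a region were protein-coding. The counts were not set against eligible sequence, which ran from 40.7 to 98.4 kb over these 10 genes. The pseudogene Gm13991 on chromosome 2 had 16, the pseudogene Gm49792 on chromosome 17 had 15, and the non-coding RNA Gm20670 on chromosome 7 had 14. Rybp, which encodes a subunit of Polycomb repressive complexes, had 12, the most of any protein-coding gene, and its neighbour 2010109P13Rik on chromosome 6 had 11. Gm12851 also had 11, and 5830428M24Rik, Axin2, Gm22808 and Gm45288 had 10 each. Axin2 encodes a negative regulator and target of Wnt signalling, and its 10 regions lay between 7963 and 47760 bp from its TSS.

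Regions often came in runs, and 9511 (41.1%) lay within 5 kb of the next gene-proximal intergenic region. The longest runs had 13 regions in 14.8 kb at Gm13991 and 13 in 14.0 kb at Gm20670. They were followed by 10 in 16.0 kb at Gm49792, 8 in 16.6 kb at Gm28002 and Gm27460 on chromosome 3, and 8 in 18.1 kb at Gm37119 and Mettl18 on chromosome 1. In the runs at Gm20670 and Gm49792, 9 of 13 and 8 of 10 regions were mostly soft-masked, and in that at Gm13991 2 of 13 were. None of the 13 at Gm13991 held any of the 16 motifs. The widest region, of 3635 bp, was 5780 bp downstream of the TSS of Vmn1r3, a vomeronasal receptor gene on chromosome 4. The next in width were 2819 and 2775 bp, both at the vomeronasal receptor pseudogene Vmn1r-ps7 on chromosome 6, 2770 bp at Vmn1r238 and 2224 bp at Gm49792. All 5 were soft-masked over 52.0 to 72.3% of their length.

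Regulators of naive pluripotency had a higher median and density of gene-proximal intergenic regions than protein-coding genes as a whole. The lists were not tested against all genes. Over all 20807 genes the median was 0 regions per gene, with 37.2 regions per Mb of eligible sequence. The 23 autosomal regulators of naive pluripotency had a median of 2, and 18 of them (78.3%, 95% Wilson interval 58.1 to 90.3%) had at least 1, with 55 regions at 96.6 per Mb. Zfp42, which encodes the naive marker REX1, had 7 regions, Tfap2c 6, Fbxo15 5, and Klf2, Sall4 and Tdgf1 4 each. Pou5f1 had 3, at 1921 to 17778 bp from its TSS. The region nearest to it holds the composite printed above. Nanog had 1, with 9 within 50 kb of its TSS when neighbouring genes are disregarded. The genes with none were Dppa4, Esrrb, Klf4, Sox2 and Tbx3. Sox2 had no eligible sequence of its own (0 kb), lying within a longer non-coding gene, and Tbx3 had 0.370 kb, so no region could be counted at Sox2 and hardly any at Tbx3. The same holds for other genes with no region and little eligible sequence, which are named with their lists.

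Of the 14 formative and primed regulators, 8 had a region (57.1%), with a median of 1 and 64.7 per Mb. Lef1 and Sox4 had 4 each, Etv4 and Tcf15 had 3. Cldn6, Dnmt3b, Fgf5, Foxd3, Otx2 and Pou3f1 had none. Of these Cldn6, Foxd3 and Pou3f1 had 0 kb of eligible sequence and Otx2 0.461 kb. Dnmt3b, a de novo DNA methyltransferase, had 7 regions within 50 kb that were closer to other TSSs.

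The lists of lineage regulators had from 40.9 to 91.7% of their genes with a region. Among 20 neuroectoderm regulators 15 had at least 1 (75.0%, median 1.50, 64.3 per Mb). Atoh1, a proneural factor, had 6, Neurog2 4, and Hes5, Neurog1, Pax3 and Sox11 3 each, while those with none included Nkx2-2, Pax6, Sox1 and Zic1. Sox1, whose expression the line reports, Nkx2-2 and Zic1 had no eligible sequence. Among 22 mesoderm and primitive streak regulators the share was lower, 9 of 22 (40.9%, 95% Wilson interval 23.3 to 61.3%), with a median of 0 and 49.5 per Mb. T, which encodes Brachyury, and Twist1 had 4 each, Hand1 3 and Meox1 2. Those without a region were Cdx1, Eomes, Foxc1, Foxc2, Gata4, Hand2, Lhx1, Mesp2, Mixl1, Msgn1, Tbx5, Tbx6 and Tcf21. Of these Foxc2, Hand2, Tbx5 and Tbx6 had no eligible sequence and Lhx1 0.489 kb. The interval of this list includes the 25.8% of all genes. Of 14 endoderm regulators 9 had a region (64.3%, median 1.50, 56.9 per Mb), led by Cxcr4 and Foxa1 with 3 and Dab2, Foxa2, Gata5, Sox17 and Sox7 with 2, and those with none included Cer1, Hhex, Hnf4a and Pdx1, the last with no eligible sequence. Of 12 trophectoderm regulators 11 had a region (91.7%, 64.6 to 98.5%; median 1, 77.2 per Mb). Tfap2c had 6, Gata3 and Hand1 3 and Ets2 and Krt18 2, and Eomes was the exception. The intervals of the mesoderm and trophectoderm lists do not overlap, but lists were not tested against each other. The lists share Cdx2, Eomes and Hand1. They also differ in eligible sequence, as every trophectoderm regulator had at least 4.04 kb.

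In 4 signalling pathways the share of genes with a region ran from 50.0 to 66.7%. In the FGF and ERK pathway 13 of 22 genes had a region (59.1%, median 1, 44.4 per Mb). Sos1, Spred2 and Spry2 had 4 each, and Egr1 and Etv4 3. Spred2 and Spry2 encode feedback inhibitors of the pathway. Those with none included Etv1, Fgf5, Fgf8, Fgfr1, Fgfr2, Fgfr3, Spry1 and Spry4, the last with no eligible sequence. In the Wnt pathway 13 of 26 had a region (50.0%, 50.0 per Mb). Axin2 had 10, Tcf7l1 5, Lef1 4 and Tcf7 3, the last 3 being nuclear partners of beta-catenin. Apc, Axin1, Ctnnb1, Fzd1, Fzd2, Fzd5, Gsk3b, Lgr4, Lrp5, Rnf43, Sfrp1, Wnt3a and Wnt5a had none, and Apc had no eligible sequence. In the Nodal and BMP pathway 14 of 21 had a region (66.7%, median 1), at 101 per Mb. The ligand gene Bmp4 had 6, the inhibitory Smad7 and the Nodal co-receptor gene Tdgf1 4 each, and Id1, Id2, Id3, Lefty2 and Nodal 3 each. The receptors Acvr2b and Bmpr1a and the transducers Foxh1, Smad2, Smad3, Smad4 and Smad5 had none, with 0.0280 kb of eligible sequence at Foxh1. In the LIF and STAT3 pathway 6 of 11 had a region (54.5%, median 1, 83.2 per Mb). The feedback inhibitor gene Socs3 had 4, Bcl3 and Pim3 3 and the receptor gene Lifr 2, while Jak1, Lif, Pim1, Sbno2 and Stat3 had none.

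Marker genes of other cell types differed between lists. Over 40 genes of 4 lists, 7 had a region (17.5%), with a median of 0 and 23.7 per Mb, and 8 (20.0%) had an accessible promoter, against 78.3% of the naive regulators and 58.9% of all genes. Of 11 haematopoietic markers only Spi1 had a region (13.5 per Mb). Those with none included Cd3e, Cd4, Cd8a, Hba-a1, Hbb-bs, Itgam, Lyz2, Ms4a1 and Ptprc, of which Itgam and Ms4a1 had no eligible sequence. None of the 10 liver and pancreas markers (Afp, Alb, Amy2a5, Apoa1, Cyp7a1, Gcg, Ins1, Ins2, Serpina1a and Ttr) had any, and Ttr had no eligible sequence. The other two lists were above the 25.8% of all genes, with wide intervals. Of 10 muscle markers (30.0%, 10.8 to 60.3%; 85.9 per Mb) Des had 4, and Myf5 and Tnnt2 had 1 each. Acta1, Ckm, Myh1, Myh6, Myh7, Myod1 and Myog had none, and Acta1, Ckm, Myh1 and Myh6 had no eligible sequence. The density of this list was above that of the formative list and of every lineage list, over only 0.0698 Mb. Of 9 fibroblast markers (33.3%, 12.1 to 64.6%; 28.9 per Mb), Col1a2 and Col3a1 had 3 and Postn 2, and Col1a1, Dcn, Lum, Pdgfra, S100a4 and Thy1 had none, with 0.672 kb of eligible sequence at S100a4. Counting every region within 50 kb of a TSS in place of the closest gene brought the lists nearer to each other. The share of genes with a region was then 95.7% for naive regulators, 100% for formative and 81.8% for mesoderm regulators, and 72.7% for haematopoietic, 70.0% for muscle, 66.7% for fibroblast and 40.0% for liver and pancreas markers. This share was not computed over all genes, and the 25.8% above counts the closest gene only.

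**Figure D5:**
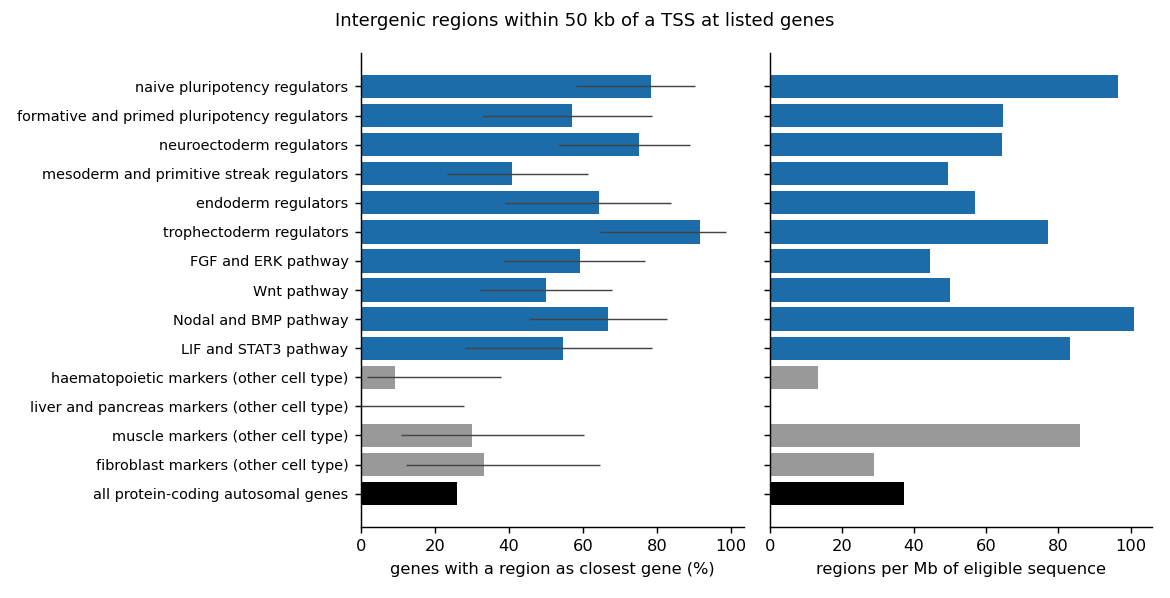
Percentage of genes in each list that are the closest gene of at least 1 gene-proximal intergenic region, with 95% Wilson intervals (left), and regions per Mb of eligible sequence closest to the list's genes (right). Blue bars are pluripotency, lineage and pathway lists, grey bars are markers of other cell types, and the black bar is all protein-coding autosomal genes at 25.8% and 37.2 per Mb.

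Among the 183 regions with the composite, 3 had a listed gene as the closest, which were named after their values were seen. These were the region at Pou5f1, a region of 308 bp centred 1933 bp downstream of the TSS of Utf1, an ES cell chromatin factor, and a region of 356 bp centred 28392 bp downstream of the TSS of T.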

How the data were processed

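ATAC-seq was performed on 12 libraries of sorted SBROS cells. The authors aligned reads to mm10 with STAR (2.5.3a), removed duplicates with Picard and called regions with MACS2 (2.1.1.20160309), as named in the submitters' processing notes, then merged the regions of all libraries. According to the paper, regions that overlapped peaks called in ChIP-seq input of mouse ES cells were left out. The deposited list has 3 columns (chromosome, start, end) and no other values. The sequence was GRCm38.p6 and the annotation GENCODE M21. Regions were classed by their centre (promoter, exon, intron, intergenic, in this order) and assigned to the gene of the closest TSS. Flanks were 200 bp long. Shares have 95% Wilson intervals, which cover counting error only. Fisher's exact and exact McNemar tests were two-sided, with an adjusted threshold of 0.05. Functions were tested on simulated data. Python (3.11.15), numpy (2.4.6), pandas (2.3.3), scipy (1.17.1) and matplotlib (3.10.9) were used. The members and gene lists were chosen with earlier results of these data known. Named genes were the 10 with the most regions, those at the 5 widest regions and the 5 longest runs (next region at most 5 kb away), in each list the 4 with the most regions and those with none, those with a composite without mismatch (0 regions), and those of the printed sequences. Ties were taken in alphabetical order, and other tied genes were named after their values were seen. Not every gene that the rule takes is printed. The ChIP-seq libraries were not analysed here.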

Additional observations from a re-analysis of the deposited data

How the results depend on the processing

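No paired analysis was possible because the list holds no value per library, so replicate numbers could not enter any result. Of 298 values under alternatives, 231 kept their direction and side of the threshold, stayed within their interval or, for counts, were within 1.5 times the count reported (the regions numbered 18330 to 26144, and as few as 4 motifs differed from introns and 6 from distant regions), 13 no longer passed, 8 newly passed, 19 changed direction and 27 moved. Of the alternatives, 2 were chosen after seeing the data: regions at most 50% soft-masked, and pairs with neither side mostly soft-masked. The share of narrow regions could not be computed among regions of at least 200 bp. Where a result changed, the cause was not tested.

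The regions' share of the autosomal list was 23.9% with protein-coding genes only, 28.7% with each gene's outer TSS or with no base in a gene or promoter, 27.8% with a promoter of 2000 bp up to 500 bp down, 23.1% with a limit of 25 kb, 33.0% with 100 kb and 29.7% with regions at most 500 bp apart joined, which also moved the median width to 338 bp. All genes within 50 kb, in place of the closest, put 95.7% of naive regulators beside a region, and raised the other lists too, to between 40.0% (liver and pancreas markers) and 100% (formative and trophectoderm regulators).

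With protein-coding genes only, the density was 1.33 times that of introns and 2.40 times that beyond 50 kb, the ratio of 5 to 10 kb over 40 to 50 kb was 1.46, 66.3% of regions lay upstream, and 3 motifs differed from introns. The share wider than 1000 bp then differed from distant regions by -0.305 points, by -0.458 without chromosome 6 and by -0.520 at 200 bp or more, each now past the threshold.

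Differences in motif share that changed direction, in points, were as follows. With protein-coding genes only, they were -0.0411 for the octamer and -0.0534 for AP-1 against introns, and -0.0405 for STAT, -0.0687 for TEAD and -0.227 for ZIC against distant regions. Among regions of at least 200 bp they were -0.0256 for TFCP2L1, 0.00658 for REST and 0.0681 for AP-1 against distant regions. Over whole regions they were -0.0605 for AP-1, -0.0553 for ETS and -0.0706 for NRF1 against introns. Without chromosome 6, ZIC was at -0.109 against distant regions. Among regions at most 50% soft-masked, TEAD was at -0.183 and ZIC at -0.128 against distant regions, and the composite at 0.000163 against introns. Against flanks, the octamer was at 0.420 (2 kb away), 0.321 (10 kb away), 1.24 (GC within 5 points) and 0.755 (neither side mostly soft-masked).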

Other observations

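Regions next to the start of the assembled chromosomes, chosen after their values were seen, differed in width from the rest. Within 500 kb of the first sequenced base of the 19 autosomes lay 142 gene-proximal intergenic regions. Of these, 13 (9.15%) were wider than 1000 bp, against 331 of 22991 (1.44%) elsewhere, and 42.3% were mostly soft-masked, against 20.5%. Their median width was 307 bp, against 319 bp. All 5 of the widest regions and 2 of the 5 longest runs lay there.

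Regions with a CTCF motif were also compared with the others for further motifs. The KLF motif was in 0.584% of the regions with a CTCF motif and in 3.58% of the others, and the SOX motif was in 6.33% and 10.9%. These shares were not tested.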
